A study of Mus musculus with 17 samples.

Results

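Chemokines are small secreted or membrane-bound proteins that direct the migration of leukocytes, and their genes and those of their receptors were followed across mouse tumors that lack Smarcb1, the gene lost in human rhabdoid tumors. The group was chosen by name, from a list of 41 ligand and receptor genes whose Ensembl IDs were paired with symbols, out of 50600 gene IDs in the files. It holds 30 ligand genes (16 CC, 12 CXC, Cx3cl1 and Xcl1) and 11 receptor genes. All 41 had an ID, and 39 passed the filter on low counts (Ccl19 and Ccl20 did not). In 35 genes the mean of at least 1 group reached 1 CPM (reads counted for the gene, scaled to the library's total).

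The families are named for the spacing of the first cysteines of the protein. Each ligand binds 1 or more G protein-coupled receptors on leukocytes, and a cell moves towards the source of the ligand. In the brain, Cx3cl1 on neurons and its receptor on microglia, and Cxcl12 with Cxcr4 in the developing tissue, are the best known pairs, while most inflammatory chemokines are made only after injury or infection.

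RNA was sequenced from 14 tumors and 3 healthy brains of C57BL/6J mice. The tumors carried the genotype SMARCB1 -/- by their labels, meaning that both copies of this SWI/SNF chromatin remodelling gene were lost, and the brains were wild type. There were 3 CNS tumors of the SHH subtype, 4 CNS tumors of the Myc subtype, 4 extracranial tumors, and 3 syngeneic grafts, in which a tumor was transplanted to the flank of a host of its own strain. The labels used here give no age, no driver of the deletion and no site of the extracranial tumors, and do not say whether grafts share a parent tumor. Since nothing says that libraries came from separate animals beyond the series' statement of separate tumors and biological replicates of brain, the p-values reflect nothing beyond how these libraries vary, which may be technical.

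Total counts ran from 18685672 to 130835711 per library. Smarcb1, the gene named in the genotype, was at 119 to 132 CPM in brain and at 2.51 to 33.2 CPM in tumors, lower in all 14. 2 libraries stood apart by their marker genes: Acta1 of skeletal muscle was at 138 CPM in Healthy brain 1 and at most 3.1 in the other brains, and Mbp of myelin at 4017 CPM in SHH CNS tumor 1 and at most 65.1 in the other tumors of that subtype. Summed over 6 muscle genes, Myc CNS tumor 1 and Extracranial tumor 1 and 2 had 46.1, 83.5 and 92.8 CPM. Calls that ended without the first 2, or without all 5, of these libraries are named below. All adjusted p-values below are from the edgeR quasi-likelihood test on counts with Benjamini-Hochberg adjustment over 21494 genes, unless another tool is named, and a gene was called at an adjusted p under 0.05. Values after ± are SE for log2 fold changes. The 4 comparisons with brain share the 3 brain libraries.

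Chemokine transcripts were few in brain and SHH tumors and many in the other tumors, and the ligand that led differed from tumor to tumor. Summed over the 30 ligands per kilobase of exon (RPKM), the level ran over brains from 40.8 to 62.5, over SHH tumors from 45.6 to 130.0, over Myc tumors from 448 to 1254, over extracranial tumors from 667 to 1471 and over grafts from 2299 to 2952. The sum over the 11 receptors was 6.83 to 12.6, 10.6 to 26.6, 32.8 to 73.8, 46.5 to 182 and 97.5 to 155 RPKM in the same order. Cx3cl1 led in all 6 brain and SHH libraries, with 36.8% to 54.5% of the summed ligand RPKM. Ccl8 led in all 3 grafts, with 39.1%, 52.7% and 65.0%. In the Myc tumors the leading ligands were Ccl12, Cxcl16, Ccl2 and Ccl5 in libraries 1 to 4, and in the extracranial tumors Ccl7, Ccl2, Cxcl10 and Ccl9, so no 2 libraries of a group shared the leader. Their shares ran from 16.8% (Ccl7) to 51.3% (Ccl9). Cxcr4 led the receptors in all 6 brain and SHH libraries, with 87.5% to 97.4% of the receptor sum, and Ccr1 led in all grafts. In the Myc and extracranial tumors the leader was Ccr1 in 4 libraries, Cxcr4 in 3 and Ccr7 in Extracranial tumor 1.

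**Figure D1:**
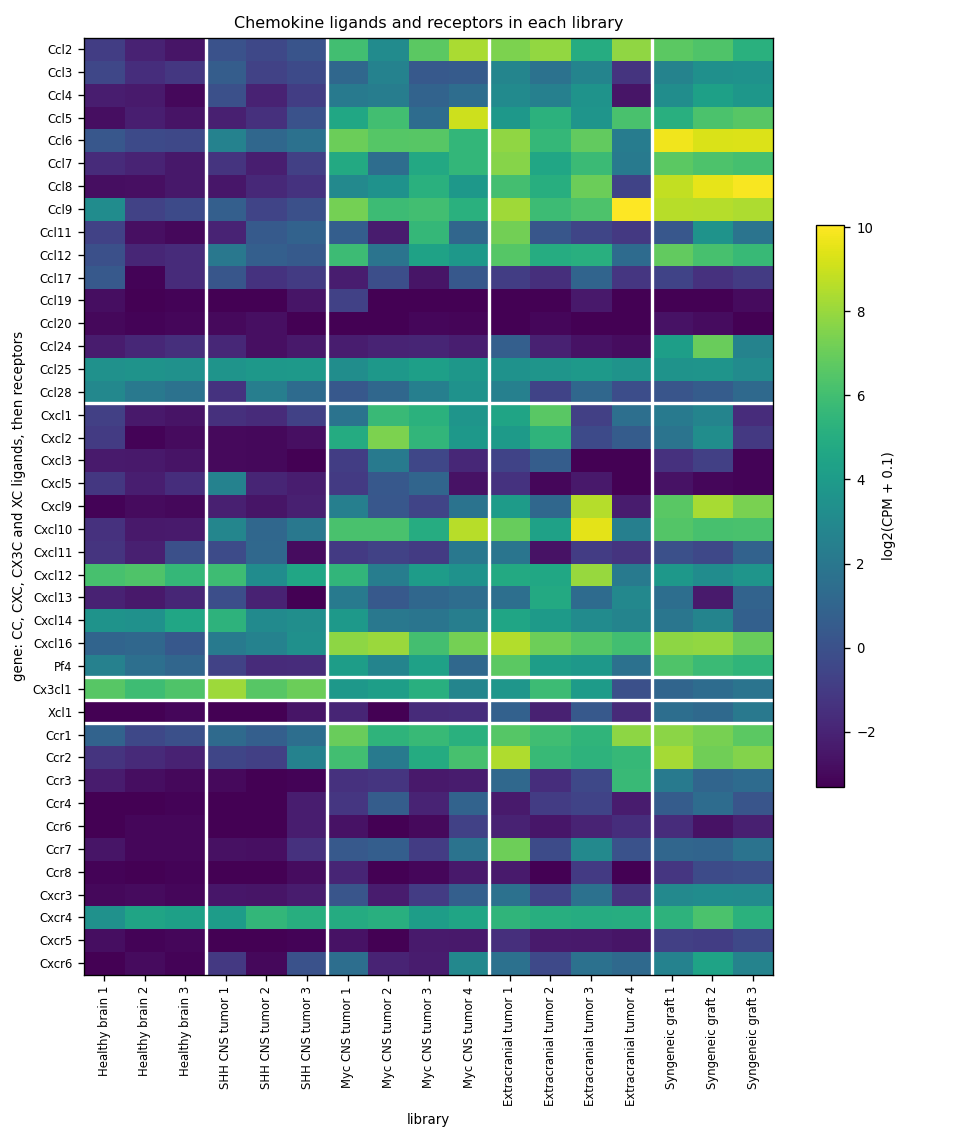
Level of each of the 41 genes (rows: CC, CXC, CX3C and XC ligands, then receptors) in each of the 17 libraries (columns), as log2(CPM + 0.1) with 0.1 CPM added before the logarithm. Inflammatory CC ligands are dark in brain and SHH tumors and bright in grafts, while Cx3cl1, Cxcl12, Cxcl14 and Cxcr4 are bright in brain.

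**Figure D2:**
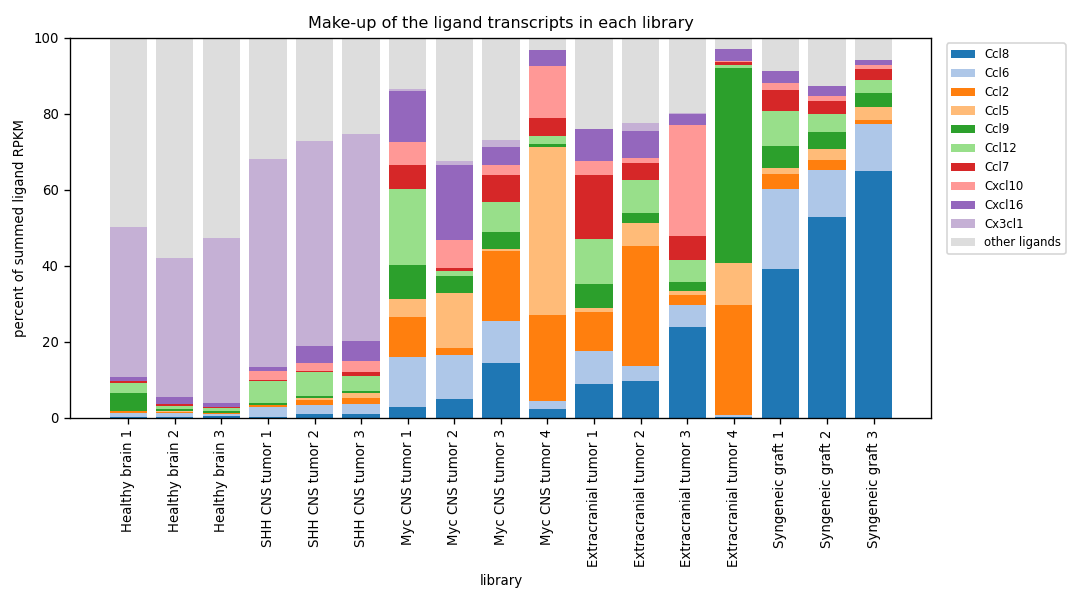
Share of each of 10 ligands in the summed RPKM of the 30 ligands, in percent, by library; grey stands for the other 20 ligands. Cx3cl1 leads in brain and SHH libraries, Ccl8 in grafts, and each Myc and extracranial tumor has a leader of its own within its group.

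Against brain, 23 of 39 tested genes rose and Cx3cl1 fell in Myc tumors, 29 rose and none fell in extracranial tumors, and 28 rose while Cxcl14 and Cx3cl1 fell in grafts. Of all genes tested, 25.3%, 26.1% and 24.9% were called higher and 26.8%, 26.1% and 30.4% lower in the same 3 comparisons, beside 59.0%, 74.4% and 71.8% of the chemokine and receptor genes called higher. The median log2 fold change of the 39 genes was 4.49, 6.33 and 5.99, against -0.01, 0.05 and -0.16 over all genes, and fold changes were not shifted by the latter. The list of genes was drawn up with earlier results of these data known, and these counts describe it. In SHH tumors edgeR called no gene of the group, where 2.44% of all genes were called higher and 1.94% lower. There 10 of 39 genes had an unadjusted p under 0.05, 9 of them upward, and the median was 1.21. DESeq2 called 5 genes in SHH tumors (Cxcl10, Cxcl16, Ccr2 and Cxcr6 higher, Pf4 lower) and limma voom 6 (Ccl11, Cxcl10, Cxcr3 and Cxcr4 higher, Cxcl12 and Pf4 lower).

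The set of 22 genes called higher in each of the Myc, extracranial and graft comparisons held 16 ligands (Ccl2, Ccl3, Ccl4, Ccl5, Ccl6, Ccl7, Ccl8, Ccl9, Ccl12, Cxcl1, Cxcl2, Cxcl9, Cxcl10, Cxcl13, Cxcl16 and Xcl1) and 6 receptors (Ccr1, Ccr2, Ccr4, Ccr7, Cxcr3 and Cxcr6). Since the comparisons share the brains, this count is a description. Another 8 genes (Ccl11, Ccl24, Pf4, Ccr3, Ccr6, Ccr8, Cxcr4 and Cxcr5) were higher in 1 or 2 of the 3, and 7 (Ccl17, Ccl25, Ccl28, Cxcl3, Cxcl5, Cxcl11 and Cxcl12) were called by edgeR in none of the comparisons with brain. By family, 9, 10 and 10 of 14 tested CC ligands, 6, 7 and 7 of 12 CXC ligands and 7, 11 and 10 of 11 receptors rose in Myc tumors, extracranial tumors and grafts. With each library of the compared groups left out in turn, 17 of 24, 23 of 29 and 26 of 30 calls were tested and kept in every run. Without Healthy brain 1 and SHH CNS tumor 1, calls ended for Cxcl9, Cx3cl1 and Ccr6 in Myc tumors (adjusted p = 0.0694 to 0.111), for Ccr6, Ccr8 and Cxcr4 in extracranial tumors (0.0763 to 0.120) and for Cxcl1 and Cxcl13 in grafts (0.0539 and 0.0828). Without all 5 libraries that stood apart, calls ended for Ccl3, Cxcl9, Cxcl13, Cx3cl1, Xcl1 and Ccr6 in Myc tumors (adjusted p = 0.0524 to 0.132), for Ccl3, Ccl11, Pf4, Ccr6, Cxcr4 and Cxcr5 in extracranial tumors (0.0517 to 0.268) and for Cxcl13 in grafts (0.0772). Fold changes of genes near 0 in brain moved with single libraries, so each single library that moved a fold change called for these genes and printed below by over 1.5 times, or ended its call, is named with the value.

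**Figure D3:**
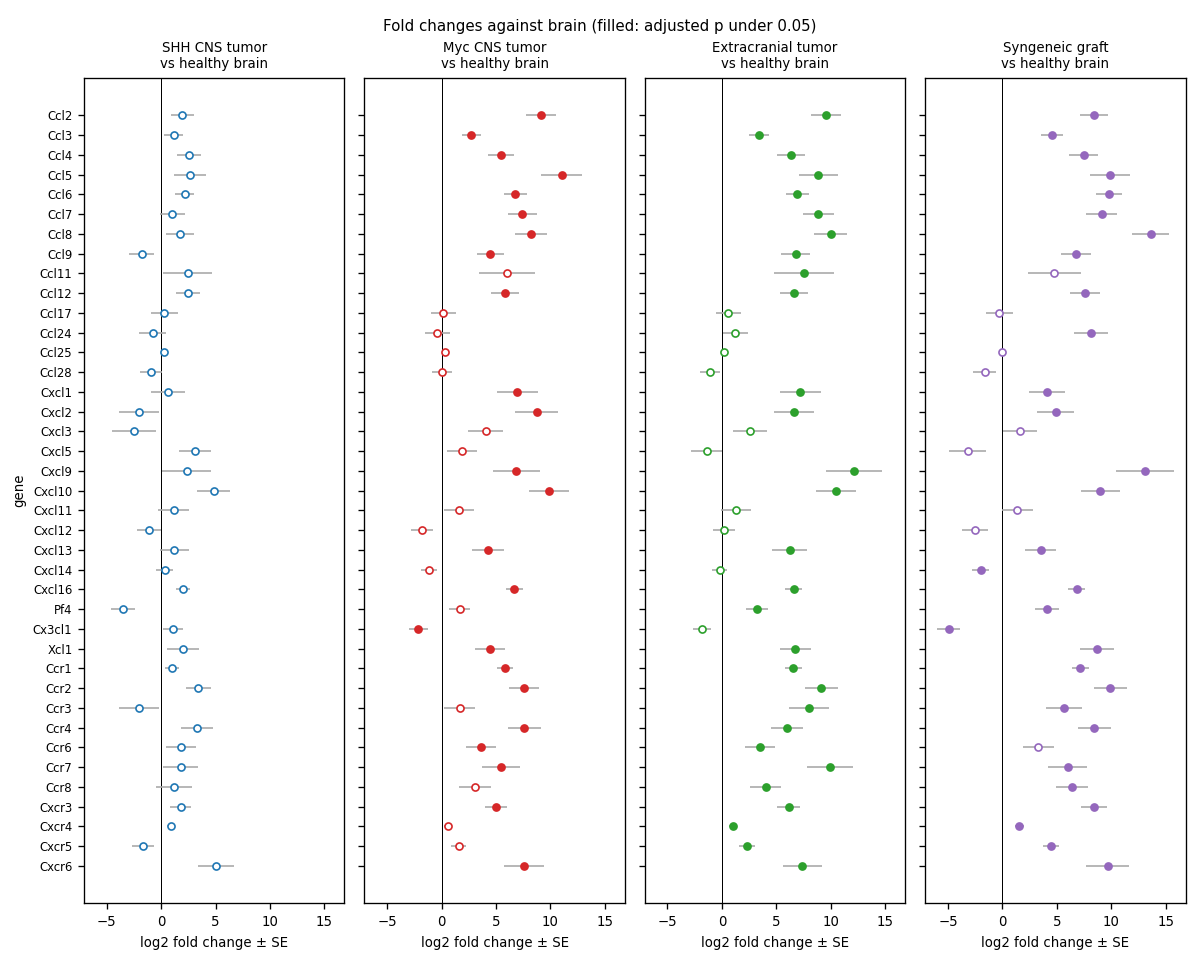
Log2 fold change against brain with its SE (x axis) for the 39 tested genes (rows) in each of the 4 tumor groups; filled points were called at an adjusted p under 0.05. No point is filled in SHH tumors, and in the other groups most ligands and receptors lie to the right of 0 while Cx3cl1 lies to the left.

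The first role is that of the monocyte attractants Ccl2, Ccl7 and Ccl12, which act on Ccr2, the receptor that brings monocytes out of the marrow and into tissue. The 3 ligands lie side by side with Ccl11 and Ccl8 on chromosome 11, between 82035571 and 82116799 (GRCm38). Ccl2 was at 0.437, 0.146 and 0.0716 CPM in the 3 brains and at 0.927, 0.635 and 0.996 in the 3 SHH tumors. Ccl2 had 65.1, 8.6, 102 and 325 CPM in the 4 Myc tumors, 173, 239, 31.2 and 225 in the 4 extracranial tumors and 103, 83.2 and 36.5 in the 3 grafts. Every tumor library lay above every brain, and the Myc and extracranial libraries overlapped each other, with Myc CNS tumor 2 and Extracranial tumor 3 low in their groups. Ccl2 gave log2 fold changes against brain of 9.15 ± 1.34 (adjusted p = 0.000105) in Myc tumors, 9.56 ± 1.37 (adjusted p = 7.92e-05) in extracranial tumors and 8.4 ± 1.31 (adjusted p = 0.000147) in grafts. Ccl2 in Myc tumors came to 10.16 without Healthy brain 1 and 8.06 without Myc CNS tumor 4. Ccl2 in extracranial tumors came to 10.57 without Healthy brain 1. Ccl2 in grafts came to 9.4 without Healthy brain 1.

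Ccl7 was at 0.214, 0.155 and 0.0795 CPM in the 3 brains and at 0.309, 0.117 and 0.487 in the 3 SHH tumors. Ccl7 had 27.7, 2.66, 26.9 and 47.1 CPM in the 4 Myc tumors, 198, 23.8, 55.5 and 4.25 in the 4 extracranial tumors and 103, 79.3 and 68.2 in the 3 grafts. The groups other than SHH did not overlap brain, and Extracranial tumor 1 was the highest of all 17 libraries while Myc CNS tumor 2 and Extracranial tumor 4 were low. Ccl7 gave log2 fold changes against brain of 7.43 ± 1.34 (adjusted p = 0.000496) in Myc tumors, 8.86 ± 1.43 (adjusted p = 0.000198) in extracranial tumors and 9.11 ± 1.46 (adjusted p = 0.00017) in grafts. Ccl7 in extracranial tumors came to 7.51 without Extracranial tumor 1. Ccl12 was at 0.858, 0.175 and 0.215 CPM in the 3 brains and at 4.07, 1.55 and 1.3 in the 3 SHH tumors. Ccl12 had 58.5, 3.44, 20.7 and 14 CPM in the 4 Myc tumors, 93.9, 31, 34.5 and 2.48 in the 4 extracranial tumors and 114, 71.6 and 50.9 in the 3 grafts. Ccl12 was also above every brain in all 14 tumors, including the 3 SHH tumors, where it was not called (2.46 ± 1.1, adjusted p = 0.211). Ccl12 gave log2 fold changes against brain of 5.85 ± 1.26 (adjusted p = 0.00167) in Myc tumors, 6.59 ± 1.3 (adjusted p = 0.000908) in extracranial tumors and 7.56 ± 1.38 (adjusted p = 0.000451) in grafts. Ccl12 in Myc tumors came to 6.93 without Healthy brain 1 and 4.96 without Myc CNS tumor 1. Ccl12 in extracranial tumors came to 7.68 without Healthy brain 1 and 5.75 without Extracranial tumor 1. Ccl12 in grafts came to 8.64 without Healthy brain 1.

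Ccr2 rose with its ligands. Ccr2 was at 0.31, 0.204 and 0.143 CPM in the 3 brains and at 0.592, 0.47 and 6.02 in the 3 SHH tumors. Ccr2 had 64.2, 4.54, 29.8 and 71.4 CPM in the 4 Myc tumors, 349, 52.4, 40.5 and 50.4 in the 4 extracranial tumors and 309, 140.4 and 193 in the 3 grafts. All tumors were above all brains, Extracranial tumor 1 stood out upward in its group, and SHH CNS tumor 3 was above Myc CNS tumor 2. Ccr2 gave log2 fold changes against brain of 7.59 ± 1.4 (adjusted p = 0.000577) in Myc tumors, 9.12 ± 1.5 (adjusted p = 0.000225) in extracranial tumors and 9.92 ± 1.55 (adjusted p = 0.000147) in grafts. Ccr2 in extracranial tumors came to 7.76 without Extracranial tumor 1. Per kilobase, Ccr2 averaged 0.0324, 0.349, 6.29, 18.2 and 31.7 RPKM in brain, SHH tumors, Myc tumors, extracranial tumors and grafts, beside 1.15, 5.43, 188, 310.1 and 316 RPKM for its 3 ligands together. These are bulk samples, in which a change in the number of cells of a type and one in the RNA per cell cannot be told apart.

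Ccr1 is a receptor of monocytes and other myeloid cells, and Ccl3, Ccl5, Ccl6, Ccl7 and Ccl9 are among its ligands. Ccl3, Ccl4, Ccl5, Ccl6 and Ccl9 lie together on chromosome 11 between 83525778 and 83664683 (GRCm38). Ccl6 and Ccl9 are rodent CC chemokines made by myeloid cells. Ccl6 was at 1.14, 0.689 and 0.636 CPM in the 3 brains and at 6.03, 2.14 and 3.06 in the 3 SHH tumors. Ccl6 had 131, 93, 94.9 and 46.6 CPM in the 4 Myc tumors, 229, 48.1, 115 and 4.89 in the 4 extracranial tumors and 872, 629.8 and 649 in the 3 grafts. The grafts were higher than all other libraries, and Extracranial tumor 4 lay among the SHH tumors. Ccl6 gave log2 fold changes against brain of 6.79 ± 1.04 (adjusted p = 0.000149) in Myc tumors, 6.91 ± 1.05 (adjusted p = 0.000129) in extracranial tumors and 9.76 ± 1.2 (adjusted p = 2.28e-05) in grafts. Ccl6 in extracranial tumors came to 6.07 without Extracranial tumor 1.

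Ccl9 was at 9.05, 0.534 and 0.716 CPM in the 3 brains and at 1.57, 0.564 and 0.86 in the 3 SHH tumors. Ccl9 had 151, 58.3, 64.1 and 36 CPM in the 4 Myc tumors, 284, 57, 80 and 1065 in the 4 extracranial tumors and 389.7, 376 and 344 in the 3 grafts. Extracranial tumor 4 was the highest library and Healthy brain 1 stood above the other brains and all SHH tumors. Ccl9 gave log2 fold changes against brain of 4.49 ± 1.21 (adjusted p = 0.00703) in Myc tumors, 6.76 ± 1.36 (adjusted p = 0.00101) in extracranial tumors and 6.75 ± 1.37 (adjusted p = 0.000998) in grafts. Ccl9 in Myc tumors came to 6.94 without Healthy brain 1. Ccl9 in extracranial tumors came to 9.21 without Healthy brain 1 and 5.31 without Extracranial tumor 4. Ccl9 in grafts came to 9.2 without Healthy brain 1. Exons of Ccl9 share stretches of 128 to 163 bases at 95% identity or more with transcripts of 11 other genes, so reads there are uncertain.

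Ccl5, which attracts T cells and monocytes, had its highest value in Myc CNS tumor 4. Ccl5 was at 0.0397, 0.117 and 0.0636 CPM in the 3 brains and at 0.129, 0.259 and 0.94 in the 3 SHH tumors. Ccl5 had 25, 63.1, 2.52 and 530.5 CPM in the 4 Myc tumors, 14.1, 38.4, 12.5 and 73 in the 4 extracranial tumors and 34.9, 77.4 and 96.7 in the 3 grafts. All tumors were above all brains, and the 4 Myc tumors ran from below to above the range of the extracranial tumors and grafts. Ccl5 gave log2 fold changes against brain of 11.03 ± 1.92 (adjusted p = 0.000364) in Myc tumors, 8.86 ± 1.77 (adjusted p = 0.000968) in extracranial tumors and 9.87 ± 1.85 (adjusted p = 0.000555) in grafts. Ccl5 in Myc tumors came to 8.65 without Myc CNS tumor 4. Ccl5 in extracranial tumors came to 8.18 without Extracranial tumor 4.

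Ccl3 and Ccl4 are the macrophage inflammatory proteins. Ccl3 was at 0.611, 0.233 and 0.35 CPM in the 3 brains and at 1.47, 0.517 and 0.702 in the 3 SHH tumors. Ccl3 had 2.13, 6, 1.25 and 1.31 CPM in the 4 Myc tumors, 6.58, 3.25, 6.56 and 0.306 in the 4 extracranial tumors and 6.3, 10.6 and 11.1 in the 3 grafts. Extracranial tumor 4 lay within the brains. Ccl3 gave log2 fold changes against brain of 2.73 ± 0.88 (adjusted p = 0.0189) in Myc tumors, 3.38 ± 0.91 (adjusted p = 0.00687) in extracranial tumors and 4.54 ± 0.99 (adjusted p = 0.00156) in grafts. Ccl3 in Myc tumors came to 2.46 without Healthy brain 2 (adjusted p = 0.0737), 2.64 without Healthy brain 3 (adjusted p = 0.0653) and 1.96 without Myc CNS tumor 2 (adjusted p = 0.0565). Ccl4 was at 0.111, 0.097 and 0.0239 CPM in the 3 brains and at 0.85, 0.141 and 0.43 in the 3 SHH tumors. Ccl4 had 4.37, 5.06, 1.83 and 2.69 CPM in the 4 Myc tumors, 8.44, 5.53, 11.5 and 0.068 in the 4 extracranial tumors and 9.28, 19 and 13.3 in the 3 grafts. Here too Extracranial tumor 4 overlapped the brains and the other 3 extracranial tumors did not. Ccl4 gave log2 fold changes against brain of 5.46 ± 1.23 (adjusted p = 0.00226) in Myc tumors, 6.33 ± 1.28 (adjusted p = 0.00105) in extracranial tumors and 7.46 ± 1.36 (adjusted p = 0.000454) in grafts.

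Ccr1 was at 1.82, 0.64 and 0.867 CPM in the 3 brains and at 2.4, 1.53 and 2.75 in the 3 SHH tumors. Ccr1 had 127, 41.4, 51.5 and 35.9 CPM in the 4 Myc tumors, 92.4, 60.9, 43.6 and 223 in the 4 extracranial tumors and 216, 158 and 103 in the 3 grafts. No library of the Myc, extracranial and graft groups overlapped brain or SHH tumors. Ccr1 gave log2 fold changes against brain of 5.85 ± 0.74 (adjusted p = 3.53e-05) in Myc tumors, 6.56 ± 0.77 (adjusted p = 1.75e-05) in extracranial tumors and 7.16 ± 0.8 (adjusted p = 1.13e-05) in grafts. Ccr1 in extracranial tumors came to 5.86 without Extracranial tumor 4. Its per-kilobase mean was 0.391, 0.785, 22.6, 37 and 56.1 RPKM in brain, SHH tumors, Myc tumors, extracranial tumors and grafts, and that of Ccl3, Ccl5, Ccl6, Ccl7 and Ccl9 together 2.37, 4.42, 274, 306 and 710.1 RPKM.

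Ccl8 is an agonist of Ccr8 in mice. Ccl8 was at 0.0397, 0.0485 and 0.0795 CPM in the 3 brains and at 0.0773, 0.188 and 0.283 in the 3 SHH tumors. Ccl8 had 7.71, 11.4, 35.8 and 14.2 CPM in the 4 Myc tumors, 66.6, 32.8, 134 and 0.544 in the 4 extracranial tumors and 459, 754 and 980.3 in the 3 grafts. The grafts were above every other library, and Extracranial tumor 4 was under 1 CPM, above the brains and SHH tumors but below the other 3 of its group. Ccl8 gave log2 fold changes against brain of 8.22 ± 1.43 (adjusted p = 0.000364) in Myc tumors, 9.98 ± 1.52 (adjusted p = 0.000133) in extracranial tumors and 13.62 ± 1.72 (adjusted p = 2.9e-05) in grafts. Ccl8 in Myc tumors came to 7.57 without Myc CNS tumor 3. Ccl8 in extracranial tumors came to 9.16 without Extracranial tumor 3. Ccr8, found on regulatory and type 2 T cells, stayed under 1 CPM everywhere, with a highest value of 0.825 CPM in Syngeneic graft 3. Brain held 2 counts of it in all, so its fold is given as a ratio of summed counts per effective library size with an exact 95% counting interval: 8.91 (1.95 to 82.7) for Myc tumors, 19.7 (4.59 to 178) for extracranial tumors and 124 (33.7 to 1037) for grafts. It was called in extracranial tumors (4.01 ± 1.45, adjusted p = 0.0316) and grafts (6.39 ± 1.5, adjusted p = 0.00269), where the fitted value depends on the prior count. Ccr8 in extracranial tumors came to 4.25 without Healthy brain 1 (adjusted p = 0.0716), 3.6 without Healthy brain 2 (adjusted p = 0.0978), 4.26 without Healthy brain 3 (adjusted p = 0.078) and 1.73 without Extracranial tumor 3 (adjusted p = 0.386).

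**Figure D4:**
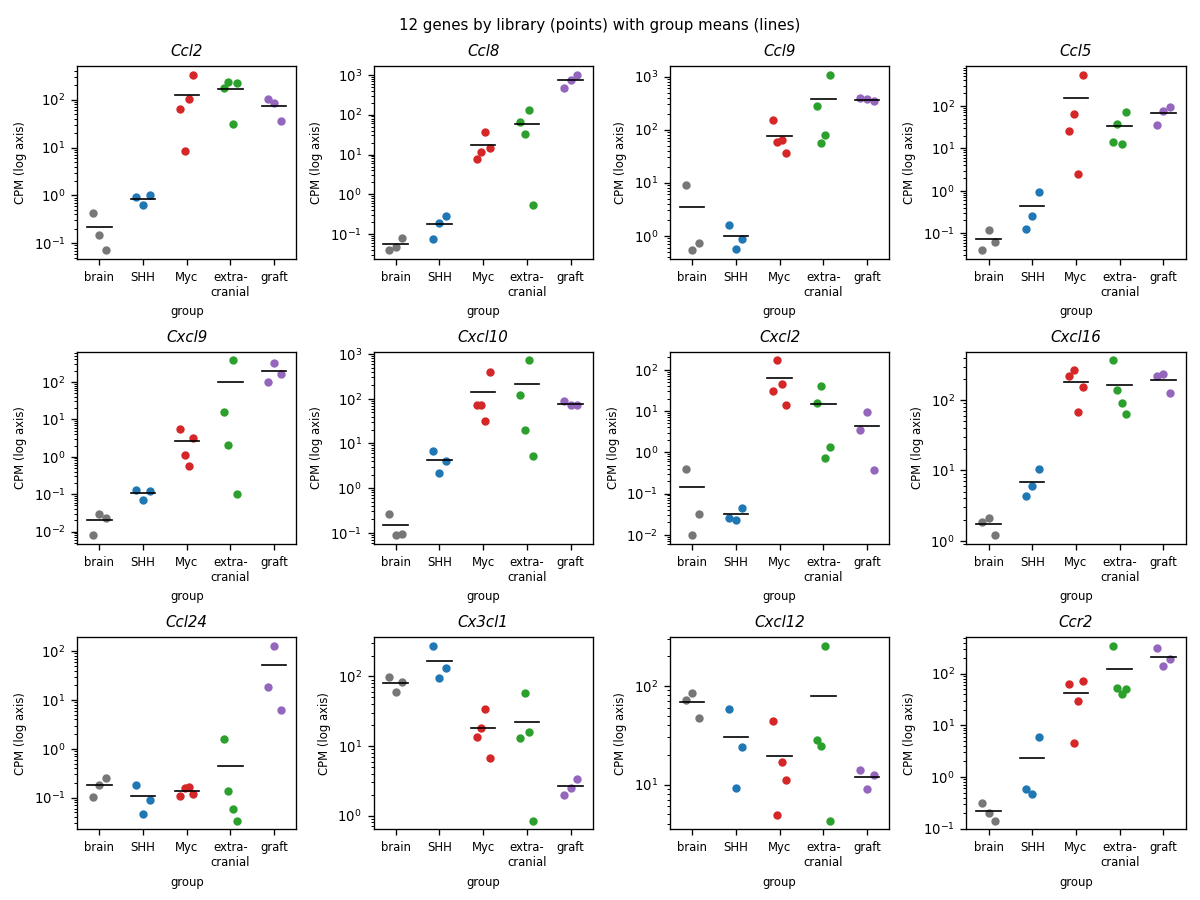
CPM (log axis) of 12 genes of the group in each library (points) with the mean of each group (lines). The graft points of Ccl8 and Ccl24 lie above all others, Cx3cl1 is lowest in Extracranial tumor 4 and the grafts, and Ccl5, Ccl9 and Cxcl12 each have 1 library above all others.

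Ccl11 and Ccl24 are eotaxins, ligands of the eosinophil receptor Ccr3. Ccl24 was at 0.103, 0.184 and 0.255 CPM in the 3 brains and at 0.18, 0.047 and 0.0906 in the 3 SHH tumors. Ccl24 had 0.109, 0.156, 0.166 and 0.12 CPM in the 4 Myc tumors, 1.56, 0.136, 0.0597 and 0.034 in the 4 extracranial tumors and 18.3, 130.1 and 6.16 in the 3 grafts. Grafts did not overlap any other group, and Syngeneic graft 2 was highest. Against brain, the log2 fold change was 8.14 ± 1.53 (adjusted p = 0.000569) in grafts. Ccl24 in grafts came to 6.04 without Syngeneic graft 2. Ccl11 was at 0.516, 0.0485 and 0.0239 CPM in the 3 brains and at 0.155, 1.27 and 1.78 in the 3 SHH tumors. Ccl11 had 1.48, 0.104, 48.2 and 2 CPM in the 4 Myc tumors, 149, 1.11, 0.597 and 0.374 in the 4 extracranial tumors and 1.12, 11.7 and 3.51 in the 3 grafts. High values were single libraries, Extracranial tumor 1 and Myc CNS tumor 3. Of the comparisons with brain, edgeR called it in extracranial tumors (7.56 ± 2.76, adjusted p = 0.0331). That call ended with every gene with a count tested (adjusted p = 0.0608) and in the fit of the compared groups only (adjusted p = 0.0754), and limma voom called Ccl11 higher in SHH tumors (adjusted p = 0.0443), Myc tumors (0.00331) and grafts (0.000618) as well. Ccl11 in extracranial tumors came to 9.96 without Healthy brain 1, 7.11 without Healthy brain 2 (adjusted p = 0.101), 7.04 without Healthy brain 3 (adjusted p = 0.102) and 1.82 without Extracranial tumor 1 (adjusted p = 0.391).

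Ccr3 was at 0.103, 0.0388 and 0.0239 CPM in the 3 brains and at 0.0258, 0 and 0.0113 in the 3 SHH tumors. Ccr3 had 0.273, 0.313, 0.0873 and 0.105 CPM in the 4 Myc tumors, 2.19, 0.234, 0.656 and 54.4 in the 4 extracranial tumors and 4.33, 1.99 and 2.42 in the 3 grafts. The high library, Extracranial tumor 4, was the lowest of its group for Ccl11 and Ccl24. Ccr3 gave log2 fold changes against brain of 7.96 ± 1.83 (adjusted p = 0.00256) in extracranial tumors and 5.66 ± 1.68 (adjusted p = 0.011) in grafts. Ccr3 in extracranial tumors came to 8.75 without Healthy brain 1 and 4.09 without Extracranial tumor 4. Ccr3 in grafts came to 6.45 without Healthy brain 1. The eosinophil markers Prg2 and Epx were at or near 0 in all tumors, with highest values of 0.805 and 0.876 CPM. Of the 5 tested markers of eosinophils and mast cells, 0 were called in extracranial tumors. In grafts 1 rose and 1 fell, beside 24.9% and 30.4% of all genes.

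Extracranial tumor 4 also stood apart in other genes of this set. It had the highest Ccl9, Ccr1 and Ccr3 of the 17 libraries and the lowest values of its group for Ccl3, Ccl4, Ccl6, Ccl7, Ccl8, Ccl12, Cxcl9, Cxcl10, Cxcl12 and Cx3cl1. Of the macrophage markers it was highest for Csf1r (1102 CPM) and Cd68 (895 CPM) among the 4 extracranial tumors, and lowest for C1qa (77 CPM), Fcgr3 (11.7 CPM) and Mrc1 (9.99 CPM).

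The CC ligands Ccl17, Ccl19 and Ccl20, which act on lymphocyte receptors, were low. Ccl17, which acts on Ccr4, was at 0.00971 to 1.22 CPM in brain and 0.0698 to 1.88 CPM in tumors and was called in no comparison. Ccl20, the ligand of Ccr6, did not exceed 0.0563 CPM in any library, and Ccl19, a ligand of Ccr7, did not exceed 0.492 CPM; both were left out of the test. Ccl19 shares exon stretches with 4 other genes or pseudogenes at 98.9% to 100% identity. Outside the group, Ccl22 is a further ligand of Ccr4 and Ccl21a of Ccr7. Ccl17 and Ccl22 together reached 7.85 RPKM, and Ccl19 and Ccl21a together 4.65 RPKM, both in Extracranial tumor 4.

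Ccr4 was at 0, 0 and 0.00795 CPM in the 3 brains and at 0, 0 and 0.113 in the 3 SHH tumors. Ccr4 had 0.328, 1.46, 0.148 and 1.81 CPM in the 4 Myc tumors, 0.0976, 0.428, 0.537 and 0.102 in the 4 extracranial tumors and 1.38, 2.58 and 1.06 in the 3 grafts. All 11 Myc, extracranial and graft libraries lay above all brains. Brain held 1 count of Ccr4 in all, and the ratio of summed counts was 279 (49.4 to 11070) for Myc tumors, 118 (20.2 to 4779) for extracranial tumors and 556 (99 to 22040) for grafts, with the exact 95% counting interval in parentheses. The calls were at adjusted p = 0.000866, 0.00335 and 0.00045, with fitted log2 fold changes of 7.62, 5.97 and 8.45 that depend on the prior count. Ccr4 in Myc tumors came to 8.78 without Healthy brain 3 and 7.02 without Myc CNS tumor 4. Ccr4 in extracranial tumors came to 7.14 without Healthy brain 3. Ccr4 in grafts came to 9.62 without Healthy brain 3. Ccr6 did not exceed 0.508 CPM in any library and was called higher in Myc (3.62 ± 1.35, adjusted p = 0.0355) and extracranial tumors (3.5 ± 1.37, adjusted p = 0.0446). Both calls ended with every gene with a count tested (adjusted p = 0.0547 in Myc and 0.0706 in extracranial tumors), without Healthy brain 1 and SHH CNS tumor 1 (0.102 and 0.120) and without all 5 libraries that stood apart (0.119 and 0.153). With single libraries left out, Ccr6 passed the filter in 2 of 7 runs in each comparison, and was called in both of those for Myc tumors. Ccr6 in extracranial tumors came to 3.52 without Extracranial tumor 1 (adjusted p = 0.0623) and 3.5 without Extracranial tumor 3 (adjusted p = 0.0607).

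Ccr7 guides dendritic cells and T cells to lymph nodes. Ccr7 was at 0.0715, 0.0194 and 0.0159 CPM in the 3 brains and at 0.0515, 0.047 and 0.272 in the 3 SHH tumors. Ccr7 had 1.26, 1.51, 0.428 and 3.33 CPM in the 4 Myc tumors, 139, 0.74, 7.76 and 0.952 in the 4 extracranial tumors and 2.03, 1.92 and 3.26 in the 3 grafts. Extracranial tumor 1 was far above every other library, and all Myc, extracranial and graft libraries lay above all brains. Ccr7 gave log2 fold changes against brain of 5.43 ± 1.73 (adjusted p = 0.0175) in Myc tumors, 9.93 ± 2.08 (adjusted p = 0.00135) in extracranial tumors and 5.99 ± 1.8 (adjusted p = 0.0117) in grafts. Ccr7 in Myc tumors came to 6.38 without Healthy brain 1, 5.16 without Healthy brain 2 (adjusted p = 0.0637), 5.08 without Healthy brain 3 (adjusted p = 0.0665) and 4.77 without Myc CNS tumor 4. Ccr7 in extracranial tumors came to 10.87 without Healthy brain 1 and 6.37 without Extracranial tumor 1. Ccr7 in grafts came to 6.93 without Healthy brain 1.

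Ccl25 and Ccl28, which guide lymphocytes to gut and mucosa, did not follow the other ligands. Ccl25 was at 10.9, 11.6 and 10.8 CPM in the 3 brains and at 12.1, 13.8 and 15.1 in the 3 SHH tumors. Ccl25 had 9.4, 14.2, 19 and 13.2 CPM in the 4 Myc tumors, 11.2, 12.3, 14.4 and 11.6 in the 4 extracranial tumors and 11.4, 12.2 and 8.56 in the 3 grafts. The SHH tumors lay above all brains and the other tumor groups overlapped the brains. EdgeR called Ccl25 in no comparison. Its exons overlap those of Elavl1 on the opposite strand, and the strand setting of the counting is not given in the sources used here. Ccl28 was at 7.41, 4.16 and 3.15 CPM in the 3 brains and at 0.283, 5.2 and 2.44 in the 3 SHH tumors. Ccl28 had 1.2, 2.14, 5.33 and 11.3 CPM in the 4 Myc tumors, 5.66, 0.545, 2.15 and 0.782 in the 4 extracranial tumors and 1.04, 1.38 and 2.28 in the 3 grafts. Ccl28 was not called by edgeR in any comparison, although all 3 grafts were below all 3 brains, where limma voom gave adjusted p = 0.0399.

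Cxcl1, Cxcl2 and Cxcl3 attract neutrophils through Cxcr2 and lie together on chromosome 5 with Cxcl5 and Pf4, between 90759360 and 90905938 (GRCm38). The 3 genes are shown by their upstream sequence because all hold the same stretch, in capitals, which matches the core of kappa-B sites bound by NF-kappa-B (GGGANNTTC, searched on both strands). The sequences are from RefSeq (GRCm38.p6), plus strand, 5′ to 3′, from 120 to 31 bases before the start of the gene, at chr5:90891125-90891214 for Cxcl1, chr5:90903779-90903868 for Cxcl2 and chr5:90785981-90786070 for Cxcl3. They were chosen after the matches were seen.
Cxcl1: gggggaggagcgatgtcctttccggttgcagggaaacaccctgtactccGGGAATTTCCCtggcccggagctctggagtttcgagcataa
Cxcl2: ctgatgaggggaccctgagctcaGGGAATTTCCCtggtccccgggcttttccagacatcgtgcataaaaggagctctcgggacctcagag
Cxcl3: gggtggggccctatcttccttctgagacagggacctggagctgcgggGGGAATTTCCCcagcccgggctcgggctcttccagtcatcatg
The matched stretch starts 71, 97 and 73 bases before the start, and matches on the 2 strands overlap within it. Of 32851 promoters, each of 300 bases, a share of 3.94% held the kappa-B core, beside 6 of 32 promoters of the group (18.8%). A match is a description of letters and not a binding site.

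Cxcl1 was at 0.484, 0.0873 and 0.0636 CPM in the 3 brains and at 0.258, 0.211 and 0.498 in the 3 SHH tumors. Cxcl1 had 3.28, 53.5, 37.9 and 12.7 CPM in the 4 Myc tumors, 22.2, 100, 0.477 and 2.89 in the 4 extracranial tumors and 4.5, 6.41 and 0.219 in the 3 grafts. Extracranial tumor 3 and Syngeneic graft 3 lay within the brains. Cxcl1 gave log2 fold changes against brain of 6.97 ± 1.88 (adjusted p = 0.00702) in Myc tumors, 7.19 ± 1.9 (adjusted p = 0.00608) in extracranial tumors and 4.11 ± 1.67 (adjusted p = 0.0495) in grafts. Cxcl1 in Myc tumors came to 8.44 without Healthy brain 1. Cxcl1 in extracranial tumors came to 8.66 without Healthy brain 1 and 5.27 without Extracranial tumor 2. Cxcl1 in grafts came to 5.58 without Healthy brain 1, 3.75 without Healthy brain 2 (adjusted p = 0.135), 3.68 without Healthy brain 3 (adjusted p = 0.138), 3.92 without Syngeneic graft 1 (adjusted p = 0.0867) and 3.42 without Syngeneic graft 2 (adjusted p = 0.121). Cxcl2 was at 0.397, 0.00971 and 0.0318 CPM in the 3 brains and at 0.0258, 0.0235 and 0.0453 in the 3 SHH tumors. Cxcl2 had 30, 169, 45.4 and 14.1 CPM in the 4 Myc tumors, 15.4, 40.8, 0.716 and 1.36 in the 4 extracranial tumors and 3.46, 9.4 and 0.365 in the 3 grafts. Myc CNS tumor 2 was highest, and among the grafts the third lay within the brains. Cxcl2 gave log2 fold changes against brain of 8.76 ± 1.98 (adjusted p = 0.0023) in Myc tumors, 6.61 ± 1.8 (adjusted p = 0.00735) in extracranial tumors and 4.88 ± 1.69 (adjusted p = 0.0243) in grafts. Cxcl2 in Myc tumors came to 11.43 without Healthy brain 1 and 7.65 without Myc CNS tumor 2. Cxcl2 in extracranial tumors came to 9.28 without Healthy brain 1 and 5.23 without Extracranial tumor 2. Cxcl2 in grafts came to 7.55 without Healthy brain 1, 4.35 without Healthy brain 2 (adjusted p = 0.0748), 4.41 without Healthy brain 3 (adjusted p = 0.0816) and 3.64 without Syngeneic graft 2 (adjusted p = 0.0878).

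Cxcl3 was at 0.0953, 0.0873 and 0.0636 CPM in the 3 brains and at 0.0258, 0.0235 and 0 in the 3 SHH tumors. Cxcl3 had 0.437, 4.38, 0.628 and 0.179 CPM in the 4 Myc tumors, 0.537, 1.46, 0 and 0 in the 4 extracranial tumors and 0.281, 0.479 and 0.0104 in the 3 grafts. Cxcl3 was called by edgeR in no comparison with brain, although DESeq2 (adjusted p = 0.0145) and the edgeR fit of the compared groups only (adjusted p = 0.0258) called it higher in Myc tumors. It shares 116 bases at 98.3% identity with Cxcl2, so some reads could belong to either. Cxcl5 was at 0.357, 0.117 and 0.239 CPM in the 3 brains and at 5.95, 0.165 and 0.113 in the 3 SHH tumors. Cxcl5 had 0.383, 1.2, 1.93 and 0.0598 CPM in the 4 Myc tumors, 0.293, 0.0195, 0.0895 and 0 in the 4 extracranial tumors and 0.0563, 0.0184 and 0.0104 in the 3 grafts. SHH CNS tumor 1 held the highest Cxcl5. It was called by edgeR in no comparison, and was lower in grafts than in brain by limma voom (adjusted p = 0.0186) and in the edgeR fit of the compared groups only (adjusted p = 0.00602). The receptor Cxcr2 was at 0.532, 0.117 and 0.127 CPM in brains, 0, 0.047 and 0.0566 in SHH tumors, 1.04, 10.8, 9.78 and 3.03 in Myc tumors, 1.61, 1.83, 0.477 and 0.136 in extracranial tumors and 16.6, 1.55 and 152 in grafts. Its highest library, Syngeneic graft 3, had the lowest Cxcl1 and Cxcl2 of the 11 Myc, extracranial and graft libraries. The neutrophil marker Ly6g did not exceed 0.374 CPM in any library. Of the 8 listed neutrophil markers, Cxcr2 included, 5, 1 and 2 were called higher than brain in Myc tumors, extracranial tumors and grafts. Of all genes, 25.3%, 26.1% and 24.9% were called higher there. Myc tumors exceeded SHH tumors in 7 of the 8, beside 19% of all genes.

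Cxcl9, Cxcl10 and Cxcl11 are induced by interferons and attract T and NK cells through Cxcr3. They lie together on chromosome 5 from 92321347 to 92365485 (GRCm38). The upstream sequences of Cxcl9 and Cxcl10 are shown because each holds a match to the core of the interferon-stimulated response element (GAAANNGAA) and one to the kappa-B core on either strand, both in capitals. They are from RefSeq (GRCm38.p6), minus strand, 5′ to 3′, the 250 bases before the start, at chr5:92328080-92328329 for Cxcl9 and chr5:92348890-92349139 for Cxcl10.
Cxcl9: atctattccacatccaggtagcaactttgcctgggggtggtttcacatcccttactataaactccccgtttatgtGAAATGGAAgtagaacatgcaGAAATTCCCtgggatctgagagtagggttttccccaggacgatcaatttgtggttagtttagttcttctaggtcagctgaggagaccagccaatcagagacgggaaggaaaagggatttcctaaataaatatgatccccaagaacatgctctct
Cxcl10: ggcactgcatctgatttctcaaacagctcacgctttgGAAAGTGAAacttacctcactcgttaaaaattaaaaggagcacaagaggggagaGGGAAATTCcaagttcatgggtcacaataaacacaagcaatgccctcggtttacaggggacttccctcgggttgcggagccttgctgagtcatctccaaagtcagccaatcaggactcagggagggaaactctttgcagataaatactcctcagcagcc
The response element match starts 175 bases before the start in Cxcl9 and 213 in Cxcl10, and the kappa-B match 154 and 159. The response element core was in 8.56% of the 32851 promoters and in 6 of 32 of the group (Ccl19, Cxcl9, Cxcl10, Ccr2, Ccl3 and Cxcl14).

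Cxcl9 was at 0.00794, 0.0291 and 0.0239 CPM in the 3 brains and at 0.129, 0.0705 and 0.124 in the 3 SHH tumors. Cxcl9 had 5.47, 1.15, 0.576 and 3.26 CPM in the 4 Myc tumors, 15.9, 2.08, 377 and 0.102 in the 4 extracranial tumors and 98.5, 312 and 164 in the 3 grafts. Extracranial tumor 3 was highest and Extracranial tumor 4 lay among the SHH tumors, and the 3 grafts were above all but Extracranial tumor 3. Cxcl9 gave log2 fold changes against brain of 6.88 ± 2.17 (adjusted p = 0.0166) in Myc tumors, 12.14 ± 2.56 (adjusted p = 0.0014) in extracranial tumors and 13.09 ± 2.64 (adjusted p = 0.000941) in grafts. Cxcl9 in Myc tumors came to 6.5 without Healthy brain 1 (adjusted p = 0.0578), 7.17 without Healthy brain 2 (adjusted p = 0.0508), 7.01 without Healthy brain 3 (adjusted p = 0.0555) and 6.28 without Myc CNS tumor 1. Cxcl9 in extracranial tumors came to 8.1 without Extracranial tumor 3. Cxcl10 was at 0.27, 0.0873 and 0.0954 CPM in the 3 brains and at 6.88, 2.14 and 4.03 in the 3 SHH tumors. Cxcl10 had 74.1, 74.2, 31.1 and 388 CPM in the 4 Myc tumors, 122, 20.1, 726 and 5.34 in the 4 extracranial tumors and 90.4, 71.5 and 73.4 in the 3 grafts. All 14 tumors, the 3 SHH tumors included, were above all brains. Cxcl10 gave log2 fold changes against brain of 4.82 ± 1.5 (adjusted p = 0.0811) in SHH tumors, 9.85 ± 1.82 (adjusted p = 0.000583) in Myc tumors, 10.47 ± 1.87 (adjusted p = 0.000428) in extracranial tumors and 8.99 ± 1.78 (adjusted p = 0.000818) in grafts. Cxcl10 in Myc tumors came to 10.56 without Healthy brain 1 and 8.59 without Myc CNS tumor 4. Cxcl10 in extracranial tumors came to 11.18 without Healthy brain 1 and 8.32 without Extracranial tumor 3. Cxcl10 in grafts came to 9.71 without Healthy brain 1. Its exons overlap those of Art3 on the opposite strand.

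Cxcl11 did not follow. It was at 0.126 to 0.859 CPM in brains and 0.034 to 3.93 CPM in tumors, was called in no comparison, and is annotated as a polymorphic pseudogene. Cxcr3 was at 0.0238, 0.0291 and 0.0159 CPM in the 3 brains and at 0.0773, 0.0705 and 0.102 in the 3 SHH tumors. Cxcr3 had 1.04, 0.104, 0.428 and 1.57 CPM in the 4 Myc tumors, 3.07, 0.545, 3.1 and 0.306 in the 4 extracranial tumors and 7.82, 8.94 and 8.75 in the 3 grafts. Cxcr3, the receptor, was above all brains in all 14 tumors and highest in grafts. Cxcr3 gave log2 fold changes against brain of 5.0 ± 1.01 (adjusted p = 0.00108) in Myc tumors, 6.14 ± 1.06 (adjusted p = 0.000332) in extracranial tumors and 8.42 ± 1.18 (adjusted p = 6.08e-05) in grafts. Cxcr3 in Myc tumors came to 4.37 without Myc CNS tumor 4. In the T and NK list, 11, 13 and 13 of 14 markers were called higher in Myc tumors, extracranial tumors and grafts. Of all genes, 25.3%, 26.1% and 24.9% were called higher there. The summed level of the list ran from 0.786 to 1.45 CPM over brains and 1.36 to 3.23 over SHH tumors. It ran from 2.71 to 52.3 over Myc tumors, 11.1 to 61.8 over extracranial tumors and 147 to 282 over grafts. The part of T and NK cells in the result was not tested.

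**Figure D5:**
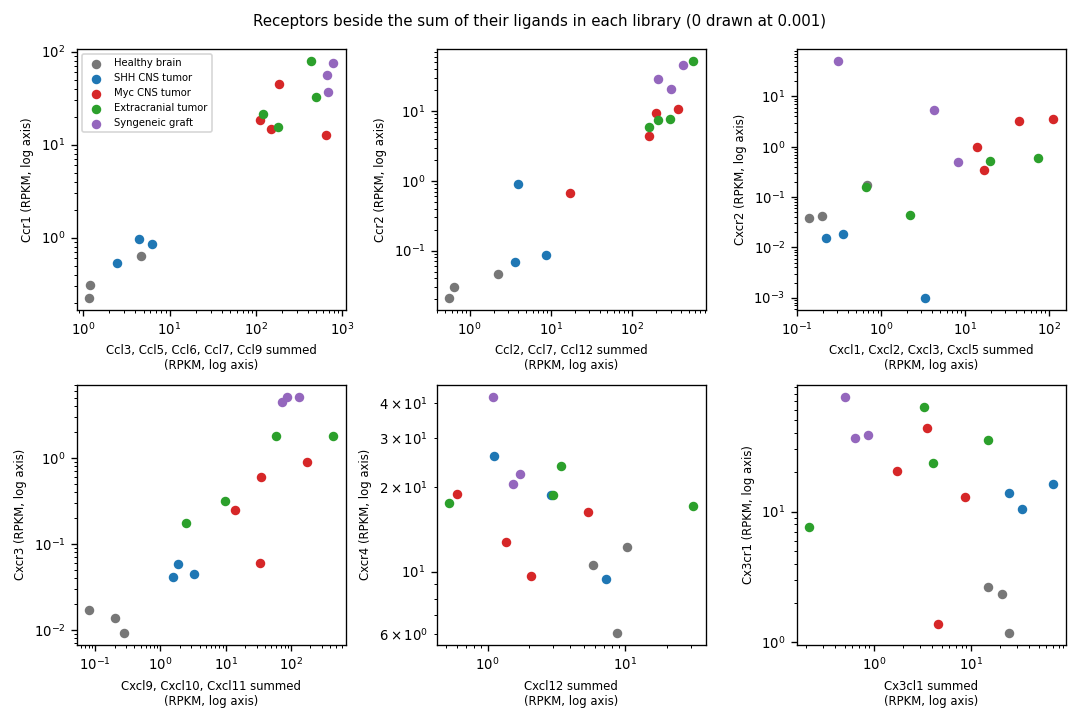
Level of 6 receptors (y axis) against the summed level of their ligands (x axis), both as RPKM on log axes, in each of the 17 libraries, with 0 drawn at 0.001. For Ccr1, Ccr2 and Cxcr3, grafts lie at high receptor and high ligand and brains at low values of both. Cx3cl1 is high in both brains and SHH tumors, while Cx3cr1 is low in brains and higher in every SHH tumor. Myc CNS tumor 2 lies within the brains for Cx3cr1.

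Cxcl16, made as a membrane protein by myeloid cells and others, acts on Cxcr6 of T and NK cells. Cxcl16 was at 1.86, 2.12 and 1.19 CPM in the 3 brains and at 4.38, 6.04 and 10.3 in the 3 SHH tumors. Cxcl16 had 224, 268, 67.1 and 155 CPM in the 4 Myc tumors, 368, 139, 91.5 and 64 in the 4 extracranial tumors and 221, 236 and 126 in the 3 grafts. The 11 Myc, extracranial and graft libraries lay far above the 6 others, and the SHH tumors above the brains. Cxcl16 gave log2 fold changes against brain of 6.69 ± 0.76 (adjusted p = 1.57e-05) in Myc tumors, 6.58 ± 0.76 (adjusted p = 1.5e-05) in extracranial tumors and 6.82 ± 0.77 (adjusted p = 1.29e-05) in grafts. Cxcl16 in extracranial tumors came to 5.83 without Extracranial tumor 1. Its exons overlap those of Zmynd15 on the opposite strand. Cxcr6 was at 0, 0.0291 and 0.00795 CPM in the 3 brains and at 0.361, 0.0235 and 0.94 in the 3 SHH tumors. Cxcr6 had 2.79, 0.156, 0.105 and 7.55 CPM in the 4 Myc tumors, 3.07, 0.662, 3.1 and 2.31 in the 4 extracranial tumors and 5.99, 21.6 and 6.12 in the 3 grafts. Myc CNS tumor 2 and 3 were near brain though above it, and Syngeneic graft 2 was highest. Cxcr6 gave log2 fold changes against brain of 7.59 ± 1.82 (adjusted p = 0.0034) in Myc tumors, 7.37 ± 1.81 (adjusted p = 0.00379) in extracranial tumors and 9.67 ± 1.98 (adjusted p = 0.00105) in grafts. Cxcr6 in Myc tumors came to 8.78 without Healthy brain 2 and 6.13 without Myc CNS tumor 4. Cxcr6 in extracranial tumors came to 8.56 without Healthy brain 2. Cxcr6 in grafts came to 10.86 without Healthy brain 2 and 8.76 without Syngeneic graft 2.

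Cxcl12 holds and guides progenitors and leukocytes through Cxcr4. Cxcl12 was at 71.7, 84.2 and 47.7 CPM in the 3 brains and at 59, 9.14 and 23.8 in the 3 SHH tumors. Cxcl12 had 44.1, 4.9, 17 and 11.2 CPM in the 4 Myc tumors, 28.1, 24.6, 256 and 4.32 in the 4 extracranial tumors and 14.1, 8.97 and 12.5 in the 3 grafts. Extracranial tumor 3 was highest and 12 of the 14 tumors were below every brain. It was called by edgeR in no comparison, and in grafts the value was -2.52 ± 1.15 (adjusted p = 0.0759), with DESeq2 adjusted p = 0.0253 and limma voom adjusted p = 0.000738. Cxcr4 was at 10.9, 22.2 and 19.1 CPM in the 3 brains and at 17, 46.9 and 33.9 in the 3 SHH tumors. Cxcr4 had 29.6, 34.1, 17.4 and 23.1 CPM in the 4 Myc tumors, 43, 33.8, 30.9 and 31.7 in the 4 extracranial tumors and 40.4, 76.2 and 37.1 in the 3 grafts. Cxcr4 was the receptor with the highest per-kilobase level in brain (9.64 RPKM) and in SHH tumors (18 RPKM). Cxcr4 gave log2 fold changes against brain of 0.58 ± 0.37 (adjusted p = 0.204) in Myc tumors, 1.0 ± 0.38 (adjusted p = 0.0375) in extracranial tumors and 1.56 ± 0.4 (adjusted p = 0.00481) in grafts. Cxcr4 in extracranial tumors came to 0.75 without Healthy brain 1 (adjusted p = 0.146), 1.07 without Healthy brain 3 (adjusted p = 0.0726), 0.89 without Extracranial tumor 1 (adjusted p = 0.0801), 0.99 without Extracranial tumor 2 (adjusted p = 0.0556) and 1.01 without Extracranial tumor 4 (adjusted p = 0.0511).

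Cxcl13 draws B cells into follicles through Cxcr5. Cxcl13 was at 0.143, 0.0873 and 0.167 CPM in the 3 brains and at 0.824, 0.141 and 0 in the 3 SHH tumors. Cxcl13 had 4.43, 1.25, 2.08 and 2.66 CPM in the 4 Myc tumors, 2.83, 27.8, 2.42 and 7.48 in the 4 extracranial tumors and 2.76, 0.0921 and 1.84 in the 3 grafts. Extracranial tumor 2 was highest, and Syngeneic graft 2 lay within brain. Cxcl13 gave log2 fold changes against brain of 4.27 ± 1.45 (adjusted p = 0.0237) in Myc tumors, 6.23 ± 1.6 (adjusted p = 0.00501) in extracranial tumors and 3.53 ± 1.43 (adjusted p = 0.0488) in grafts. Cxcl13 in Myc tumors came to 4.32 without Healthy brain 1 (adjusted p = 0.0656), 4.05 without Healthy brain 2 (adjusted p = 0.081) and 4.47 without Healthy brain 3 (adjusted p = 0.0653). Cxcl13 in extracranial tumors came to 4.98 without Extracranial tumor 2. Cxcl13 in grafts came to 3.59 without Healthy brain 1 (adjusted p = 0.106), 3.31 without Healthy brain 2 (adjusted p = 0.129), 3.73 without Healthy brain 3 (adjusted p = 0.101), 2.84 without Syngeneic graft 1 (adjusted p = 0.133) and 3.4 without Syngeneic graft 3 (adjusted p = 0.0861). Cxcr5 stayed under 0.7 CPM, with the 3 grafts at 0.478, 0.442 and 0.658 CPM against 0.0397, 0.00971 and 0.0159 in brains. It was called in extracranial tumors (2.33 ± 0.72, adjusted p = 0.015) and grafts (4.46 ± 0.75, adjusted p = 0.00024). Cxcr5 in extracranial tumors came to 3.01 without Healthy brain 1, 2.02 without Healthy brain 2 (adjusted p = 0.0666) and 2.15 without Healthy brain 3 (adjusted p = 0.0651). Cxcr5 in grafts came to 5.13 without Healthy brain 1. The B cell marker Ms4a1 did not exceed 0.195 CPM in any library, and Cxcr5 exons overlap those of Bcl9l on the opposite strand.

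Cxcl14 is a CXC ligand of brain and epithelia. Cxcl14 was at 11.6, 11 and 24.2 CPM in the 3 brains and at 40.4, 8.23 and 9.84 in the 3 SHH tumors. Cxcl14 had 15.2, 4.07, 3.59 and 5.26 CPM in the 4 Myc tumors, 22.9, 15.6, 8.68 and 6.39 in the 4 extracranial tumors and 3.66, 6.45 and 1.64 in the 3 grafts. The grafts were below all brains, and the other tumors overlapped them. Its log2 fold change against brain was -1.99 ± 0.78 (adjusted p = 0.0411) in grafts. Cxcl14 in grafts came to -1.53 without Healthy brain 3 (adjusted p = 0.145), -1.97 without Syngeneic graft 1 (adjusted p = 0.0925), -2.58 without Syngeneic graft 2 and -1.62 without Syngeneic graft 3 (adjusted p = 0.135). Pf4, platelet factor 4, is also made by some macrophages. Pf4 was at 5.89, 2.89 and 2.04 CPM in the 3 brains and at 0.515, 0.211 and 0.226 in the 3 SHH tumors. Pf4 had 17.4, 6.36, 20 and 2.17 CPM in the 4 Myc tumors, 102, 17.2, 14.2 and 3.02 in the 4 extracranial tumors and 83.1, 56.1 and 42.7 in the 3 grafts. The SHH tumors were below all brains and the grafts above them. Pf4 gave log2 fold changes against brain of -3.52 ± 1.1 (adjusted p = 0.0834) in SHH tumors, 3.23 ± 1.03 (adjusted p = 0.0174) in extracranial tumors and 4.07 ± 1.1 (adjusted p = 0.00651) in grafts. Pf4 in extracranial tumors came to 3.1 without Healthy brain 2 (adjusted p = 0.0626), 2.95 without Healthy brain 3 (adjusted p = 0.0696) and 1.67 without Extracranial tumor 1 (adjusted p = 0.0889). The platelet markers Gp9, Gp1ba and Gp6 did not exceed 0.534 CPM in any library. Their list held 6 genes, of which 3 were tested. Against brain, 1 rose in Myc tumors, 1 rose in extracranial tumors and 1 fell in grafts. Of all genes, 25.3% and 26.1% were called higher in the first 2 groups and 30.4% lower in grafts. Myc tumors exceeded SHH tumors in 2 of the 3, beside 19% of all genes.

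Cx3cl1, a membrane-anchored ligand of neurons, was the one gene called lower in both Myc tumors and grafts. Cx3cl1 was at 97.2, 59 and 83.2 CPM in the 3 brains and at 278, 96.6 and 133 in the 3 SHH tumors. Cx3cl1 had 13.7, 18.1, 34.3 and 6.76 CPM in the 4 Myc tumors, 12.9, 58.4, 15.9 and 0.85 in the 4 extracranial tumors and 1.97, 2.51 and 3.42 in the 3 grafts. SHH tumors overlapped brain and reached higher, and Myc tumors, extracranial tumors and grafts were all below brain. Cx3cl1 gave log2 fold changes against brain of -2.13 ± 0.85 (adjusted p = 0.0487) in Myc tumors, -1.86 ± 0.85 (adjusted p = 0.0793) in extracranial tumors and -4.92 ± 1.07 (adjusted p = 0.00156) in grafts. Cx3cl1 in Myc tumors came to -1.96 without Healthy brain 1 (adjusted p = 0.107), -2.31 without Healthy brain 2 (adjusted p = 0.0659), -2.1 without Healthy brain 3 (adjusted p = 0.0935), -2.0 without Myc CNS tumor 1 (adjusted p = 0.102), -2.12 without Myc CNS tumor 2 (adjusted p = 0.0862) and -1.85 without Myc CNS tumor 4 (adjusted p = 0.111). Its receptor Cx3cr1, a microglia and monocyte gene, was at 5.3, 11.9 and 10.6 CPM in brains, 73.4, 62.6 and 47.5 in SHH tumors, 195, 6.21, 58.3 and 91.8 in Myc tumors, 287, 159, 107 and 34.4 in extracranial tumors and 343, 164 and 174 in grafts. Cx3cr1 rose in Myc tumors (3.25 ± 0.9, adjusted p = 0.00801), extracranial tumors (3.99 ± 0.93, adjusted p = 0.0028) and grafts (4.62 ± 0.98, adjusted p = 0.00134), with Myc CNS tumor 2 within the brains. Of 6 neuron markers, 2, 4 and 4 were called lower in these 3 groups, beside 26.8%, 26.1% and 30.4% of all genes. The 2 in Myc tumors thus lie near the share of all genes. In SHH tumors 1 of the 6 was called lower, beside 1.94% of all genes. The summed level of the markers was 1963 to 2584 CPM over brains, 89.4 to 536 over Myc tumors, 46.5 to 405 over extracranial tumors and 144 to 205 over grafts. Their median log2 fold change against brain was -0.41 in SHH tumors, -2.55 in Myc tumors, -3.27 in extracranial tumors and -4.86 in grafts. The part of neurons in the result was not tested.

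Xcl1, made by T and NK cells, acts on Xcr1 of cross-presenting dendritic cells. Xcl1 was at 0, 0 and 0.0159 CPM in the 3 brains and at 0, 0 and 0.0679 in the 3 SHH tumors. Xcl1 had 0.164, 0, 0.209 and 0.239 CPM in the 4 Myc tumors, 1.71, 0.136, 1.22 and 0.204 in the 4 extracranial tumors and 2.76, 2.29 and 4.12 in the 3 grafts. Myc CNS tumor 2 was at 0, and all extracranial tumors and grafts were above all brains. Brain held 2 counts in all, and the ratio of summed counts with its exact 95% counting interval was 34.8 (9.07 to 297) for Myc tumors, 117 (31.5 to 982) for extracranial tumors and 589.7 (162 to 4880) for grafts. The calls were at adjusted p = 0.0137, 0.00152 and 0.000377, with fitted log2 fold changes of 4.47, 6.75 and 8.67 that depend on the prior count. The next values, with libraries left out, are log2 fold changes as well. Xcl1 in Myc tumors came to 3.98 without Healthy brain 1 (adjusted p = 0.0508), 4.04 without Healthy brain 2 (adjusted p = 0.0531) and 6.28 without Healthy brain 3. Xcl1 in extracranial tumors came to 8.57 without Healthy brain 3 and 6.11 without Extracranial tumor 1. Xcl1 in grafts came to 10.49 without Healthy brain 3. Xcl1 exons overlap those of Gm20743 on the opposite strand. Xcr1 rose by 6.13 ± 1.69 (adjusted p = 0.0078) in Myc tumors, 7.91 ± 1.77 (adjusted p = 0.00213) in extracranial tumors and 10.66 ± 1.94 (adjusted p = 0.000447) in grafts.

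Between tumor groups, Myc tumors exceeded SHH tumors in 19 of 39 genes and were lower in Cx3cl1, where 19% of all genes were called higher and 21.9% lower. The 19 were Ccl2, Ccl4, Ccl5, Ccl6, Ccl7, Ccl8, Ccl9, Ccl12, Cxcl1, Cxcl2, Cxcl3, Cxcl10, Cxcl16, Pf4, Ccr1, Ccr2, Ccr4, Cxcr3 and Cxcr5. With each library of the 2 groups left out in turn, 13 of the 20 calls were kept in all 7 runs. The call of Ccl4 ended in 6 runs, all but the one without Myc CNS tumor 3 (adjusted p = 0.0558 to 0.141). Ccl12 lost its call without SHH CNS tumor 2, SHH CNS tumor 3 or Myc CNS tumor 1 (0.0715 to 0.0863), Cxcl3 without any of the 3 SHH tumors or Myc CNS tumor 2 (0.0584 to 0.0763), and Cxcl1 without SHH CNS tumor 1 or 2 (0.0532 and 0.0534). Without SHH CNS tumor 2 the calls of Cxcl10, Cxcr3 and Cxcr5 ended too (0.0555, 0.0519 and 0.0508). The median log2 fold change over the group was 3.39, against 0.00 over all genes. Ccr1 rose by 4.84 ± 0.7 (adjusted p = 0.000218) and Cxcl16 by 4.68 ± 0.69 (adjusted p = 0.000225) on the log2 scale, and no library of 1 group overlapped the other. Ccr1 against SHH tumors in Myc tumors came to 4.25 without Myc CNS tumor 1. Ccl5 rose by 8.39 ± 1.71 (adjusted p = 0.00185). Ccl5 against SHH tumors in Myc tumors came to 9.62 without SHH CNS tumor 3 and 5.99 without Myc CNS tumor 4. Cx3cl1 differed by -3.22 ± 0.88 (adjusted p = 0.0103). Without SHH CNS tumor 1 and Healthy brain 1 its adjusted p was 0.0549 and 14 genes were called higher, with Ccl4, Cxcl1, Cxcl3, Ccr2, Ccr4 and Cxcr3 no longer among them and Cxcl13 added. Without these and Myc CNS tumor 1 and Extracranial tumor 1 and 2, 13 genes were called higher and none lower, with the calls of Ccl4, Ccl12, Ccr2, Ccr4, Cxcr3 and Cxcr5 ended (adjusted p = 0.0544 to 0.123).

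Between extracranial and Myc tumors, edgeR called 0 of 39 genes, where it called 0% of all genes higher and 0.0186% lower. An unadjusted p under 0.05 was reached by 6 genes, 5 of them upward, DESeq2 called 2 (Cxcl9 and Ccr7 higher) and limma voom 0. The 2 groups overlapped in each of the 39 genes, and how often they overlap over all genes was not counted, so this is a description. Cxcl9 differed by 5.26 ± 1.63 (adjusted p = 0.167) and Ccr7 by 4.5 ± 1.42 (adjusted p = 0.168), with the highest values in Extracranial tumor 3 and Extracranial tumor 1.

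Grafts exceeded extracranial tumors in 1 gene, Ccl24, where 2.16% of all genes were called higher and 2.62% lower. The median of the group was 0.23, against -0.13 over all genes. The log2 fold change of Ccl24 was 6.92 ± 1.29 (adjusted p = 0.0187). Ccl24 in grafts came to 9.25 without Extracranial tumor 1 and 4.85 without Syngeneic graft 2 (adjusted p = 0.0783). It was not called by limma voom (adjusted p = 0.0523) or in the edgeR fit of the 2 groups only (adjusted p = 0.108). Ccl6 and Ccl8 did not overlap between these groups but missed the threshold (2.85 ± 0.79, adjusted p = 0.0526 for Ccl6 and 3.64 ± 1.01, adjusted p = 0.0526 for Ccl8), and DESeq2 and limma voom called both. An unadjusted p under 0.05 was reached by 10 genes, 6 of them upward.

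Other genes of the pathway, from lists chosen with earlier results of these data known, were counted in the same way. Of 15 tested genes in the list of other chemokines and receptors, 5 rose and 2 fell in Myc tumors, 4 rose and 1 fell in extracranial tumors, and 6 rose and 4 fell in grafts, and none was called in SHH tumors. Over all genes 25.3%, 26.1% and 24.9% were called higher and 26.8%, 26.1% and 30.4% lower in these 3 comparisons, so the 5 and 4 of 15 that rose in Myc and extracranial tumors lie near the share of all genes. The genes that fell, named after their values were seen, were Ccl27a and Ackr4 in Myc tumors, Ccl27a in extracranial tumors, and Ccl27a, Ackr1, Ackr2 and Ackr4 in grafts. Ccrl2, which presents chemokines to other cells, rose in Myc tumors (3.69 ± 0.78, adjusted p = 0.00147), extracranial tumors (3.09 ± 0.76, adjusted p = 0.00378) and grafts (4.35 ± 0.82, adjusted p = 0.000585). Among 22 genes of receptor signalling and leukocyte migration, 5 rose in SHH tumors, 15 in each of the other 3 groups, and 2, 1 and 0 fell there. In SHH tumors 2.44% of all genes were called higher. Was, an actin regulator of blood cells, rose by 4.21 ± 0.48 (adjusted p = 1.77e-05) in Myc tumors and by 6.17 ± 0.54 (adjusted p = 2.42e-06) in grafts. Selplg, a selectin ligand of leukocytes, already rose in SHH tumors (3.69 ± 0.55, adjusted p = 0.00532).

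Of 15 tested inducers of chemokine transcription, 2 rose in SHH tumors, 13 in Myc tumors, 14 in extracranial tumors with Ifng lower, and 14 in grafts. Of all genes, 2.44%, 25.3%, 26.1% and 24.9% were called higher in the same order, and 26.1% lower in extracranial tumors. Nfkb2, an NF-kappa-B subunit, rose by 4.39 ± 0.4 (adjusted p = 3.92e-06) in Myc tumors, 5.05 ± 0.41 (adjusted p = 1.88e-06) in extracranial tumors and 5.12 ± 0.42 (adjusted p = 1.76e-06) in grafts. Irf7, an interferon regulatory factor, rose by 7.16 ± 0.79 (adjusted p = 1.35e-05), 6.47 ± 0.77 (adjusted p = 1.97e-05) and 8.14 ± 0.84 (adjusted p = 6.44e-06). Ifng, the gene of interferon gamma, was at 0 in all SHH and extracranial tumors and at 0.281, 0.848 and 0.741 CPM in grafts. It was the one inducer higher in grafts than in extracranial tumors. The extracranial libraries held 22491998 to 52956537 total counts and the brains 103095016 to 130835711. The lower call of Ifng thus sets values of 0 in shallower libraries against brain.

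Markers of macrophages and monocytes moved with the group. All 14 macrophage and monocyte markers were called higher in Myc tumors, extracranial tumors and grafts, and 4 in SHH tumors. Of all genes, 25.3%, 26.1% and 24.9% were called higher in the first 3 groups and 2.44% in SHH tumors. The summed level of the 14 markers was 90.9 to 148 CPM over brains and 468 to 620.5 over SHH tumors. It was 1959 to 6696 over Myc tumors, 2952 to 10490 over extracranial tumors and 8992 to 13100 over grafts. Of 8 microglia markers 5 rose in each of these 3 groups, where 2, 1 and 1 fell, and 2 rose in SHH tumors, with sums of 92.3 to 127 CPM over brains, 339.8 to 364 over SHH tumors, 549 to 1151 over Myc tumors, 638 to 1439 over extracranial tumors and 512 to 641 over grafts. The other lists are read beside the 25.3%, 26.1% and 24.9% of all genes called higher in Myc tumors, extracranial tumors and grafts. Of 8 neutrophil markers 5, 1 and 2 rose in these groups, so the count in extracranial tumors is under that share and the one in grafts near it. Of 8 dendritic cell markers 3, 5 and 5 rose while 2, 1 and 1 fell, and of 6 fibroblast markers 3, 3 and 1 rose. Of 5 tested markers of B and plasma cells 1 rose and 1 fell in each group. Of 5 tested markers of eosinophils and mast cells 0, 0 and 1 rose and 1, 0 and 1 fell. The part of these cell types in the levels of the chemokine genes was not tested.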

How the data were processed

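Polyadenylated RNA of 17 libraries (TruSeq Stranded mRNA) was sequenced. The deposited values are raw counts per Ensembl gene, 1 file per library; per the submitters' processing notes STAR 2.5.3a and mm10 were used, and the counting tool, its strand setting and the annotation are not given in the sources used here. Groups follow the library titles. Genes were tested with edgeR 4.0.16 (TMM, filterByExpr with a minimum count of 10, quasi-likelihood with robust spread, all 17 libraries in 1 fit, Benjamini-Hochberg over 21494 genes, called under 0.05), tested on simulated data. CPM used TMM library sizes, and RPKM the union exon length of GENCODE mouse release 21. Alternatives were DESeq2 1.42.0, voom from limma 3.58.1, RLE size factors, no count filter, one at 50 counts, a fit of the compared groups only, a replicate block, and libraries left out. Values in every library are given for the 35 genes with a mean of at least 1 CPM in a group, except Cxcl11, which is given as ranges. From other lists at most 4 genes per comparison are named by smallest adjusted p. Further genes of those lists are named as receptors of the ligands, as markers at or near 0, or after their values were seen. The last holds for the macrophage markers given for Extracranial tumor 4. Exon stretches shared with other genes were found with BLAST 2.17.0 (at least 100 bases at 95%). Promoters came from RefSeq and were found for 30 of 41 genes; the others are not analysed here. The members and lists were chosen with earlier results of these data known. Replicate libraries differed by more than sampling noise. Intervals cover counting error only.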

Additional observations from a re-analysis of the deposited data

Results flagged for a closer look

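In 4 genes a single library lay far from the others of their group, by Dixon's gap ratio at the 95% level in groups of 4, where chance flags about 1 in 20 of the 59 groups tested. Ccl2 was at 31.2 CPM in Extracranial tumor 3, below the 173 to 239 CPM of the other 3. Ccl4 was at 0.0680 CPM in Extracranial tumor 4, below 5.53 to 11.5 CPM. Cxcl11 was at 3.93 CPM in Myc CNS tumor 4, above 0.383 to 0.521 CPM. Ccr2 was at 349 CPM in Extracranial tumor 1, above 40.5 to 52.4 CPM.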

How the results depend on the processing

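No called fold change reversed its direction under any alternative run. Against brain in SHH tumors, where edgeR called none, DESeq2 called 4 higher and 1 lower, limma voom 4 and 2, the compared groups only 1 and 1, and the replicate block 1 lower. In Myc tumors the 1 lower call became 0 with every gene with a count, with the replicate block and without Healthy brain 1 and SHH CNS tumor 1, and 3 with limma voom. In extracranial tumors DESeq2 and limma voom called 1 lower. In grafts limma voom and the compared groups only called 5 lower. Between Myc and SHH tumors the 1 lower call became 0 without the 2, and without the 5, libraries with other tissue. Between extracranial and Myc tumors DESeq2 called 2 higher. Between grafts and extracranial tumors the 1 higher call became 5 with DESeq2, 8 with limma voom, 2 with the replicate block and 0 with the compared groups only, and DESeq2 called 3 lower. The cause was not tested. With each library left out in turn, higher and lower calls ran from 17 to 24 and 0 to 1 in Myc tumors, 23 to 27 and 0 to 1 in extracranial tumors, and 25 to 27 and 1 to 2 in grafts, from 12 to 19 and 1 to 2 between Myc and SHH tumors, 0 to 1 and 0 to 0 between extracranial and Myc tumors, and 0 to 3 and 0 to 1 between grafts and extracranial tumors, and were 0 in SHH tumors. Library numbers did not pair the samples, since correlations of same-numbered deviations ran from -0.18 to 0.083. With the replicate block, 96 of the 104 calls over the 7 comparisons were kept. The 8 lost were Cx3cl1 (adjusted p = 0.146) and Ccr6 (log2 fold change 1.73, 0.323) in Myc tumors, Ccl11, Ccr6 and Ccr8 in extracranial tumors (0.0515 to 0.0803), Cxcl1 and Cxcl13 in grafts, all against brain, and Cxcr3 between Myc and SHH tumors. Another 7 were gained, among them Cxcl3, Cxcl5 and Pf4 higher in Myc tumors. Of the 104 calls, 101 were kept with RLE size factors, 96 with every gene with a count, 100 with limma voom, 89 without the 2 libraries and 84 without the 5, and DESeq2 kept the 101 for which it gave an adjusted p. The minimum count of 50 kept the 96 it tested, and the compared groups only 93 of 97. The calls lost with RLE size factors were Cxcr4 in extracranial tumors and Cxcl1 and Cxcl13 in grafts. Ccr4 had 1 count, and Ccr8 and Xcl1 had 2 counts each, in the 3 brains together, and differences within their counting intervals were not detectable at this depth.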
